A study of Homo sapiens with 6 samples.

Results

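The integrins, the laminin chains and nidogens of the basement membrane, and the adaptors of focal adhesions were followed in 12Z cells after knockdown of LINC01133. The 37 genes were chosen by name, as integrin subunits, laminin chains, nidogens and core adaptors, from the 60660 genes of the count tables. Of these, 34 passed the filter on low counts and were among the 15155 genes tested. 12Z is an established epithelial cell line from endometriosis. One group of 3 libraries was a control, in which the transfected siRNA was non-targeting, and in the other group of 3 the siRNA LINC01133a was used at 10 nM. All cells were lysed 72 h after transfection, and the study calls the libraries biological replicates. A single targeting siRNA was sequenced, so loss of LINC01133 and other effects of this oligo cannot be told apart. Its strands are shown from 5′ to 3′, with the seed (bases 2 to 8) in capitals, because the seed is compared with the members' transcripts further on:
guide strand of LINC01133a: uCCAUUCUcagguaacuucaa
passenger strand of LINC01133a: gAAGUUACcugagaauggatt

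Integrins are transmembrane receptors made of an alpha and a beta subunit, and the pair decides which matrix protein is bound. Laminins are trimers of an alpha, a beta and a gamma chain that form the sheet of the basement membrane, and nidogens link this sheet to type IV collagen. Inside the cell, talins and kindlins bind the tail of the beta subunit and, with ILK, paxillin and focal adhesion kinase, couple it to actin.

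The libraries held 27742562 to 37551194 counts on genes. LINC01133 itself had 813, 818 and 837 normalized counts in control libraries 1 to 3 and 129.7, 131 and 138 in knockdown libraries 1 to 3. The keratins KRT8, KRT18 and KRT19 were abundant, while EPCAM, another epithelial marker, had only 0.748 ± 0.234 TPM (counts per kb of exon, scaled to the same total in every library) in the control group (SD, n = 3). Some fibroblast-type genes were abundant too, with COL3A1 at 2483 TPM in control cells. Others were low, with COL1A2 at 15.8 ± 4.02 and PDGFRA at 3.49 ± 0.689 TPM in the control group (SD, n = 3). The 7 epithelial markers summed to between 6731 and 7174 TPM in control libraries and between 4352 and 4467 in knockdown libraries, whereas the 8 fibroblast or stromal markers summed to between 5274 and 5809.7 and between 5073 and 5090.4. Of 6 leukocyte markers, 5 stayed under 1 TPM in every library, with CD3E and MS4A1 at 0 in all, and CD14 accounted for the rest of their sum. The 5 endothelial markers, of which 2 stayed under 1 TPM, summed to 36.3 to 38.3 TPM in control and 24.4 to 26.4 in knockdown libraries. The part of these marker shifts in the results was not tested. In bulk RNA, fewer cells of a kind and less RNA per cell cannot be told apart.

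Most of the 34 tested members were slightly lower in knockdown cells, and few moved far. A gene was called differentially expressed (DE) at a fold change over 1.5 and an adjusted p under 0.05 by the quasi-likelihood test of edgeR, adjusted after Benjamini-Hochberg over every gene tested. At these cutoffs, 4 of the 34 tested members were DE, all of them lower: ITGB4, ITGA11, NID2 and ITGA2. Over all genes tested, 11.7% were DE (5.30% higher and 6.43% lower), so the share of members, 11.8%, lay at the background. By adjusted p alone, 22 members passed, against 48.3% of all genes tested. Of these, 21 were lower and 1, LAMB2, was higher, against 25.0% lower and 23.3% higher among all genes tested. The median log2 fold change was -0.25 over the members and 0.0032 over all genes. Many members are abundant, and abundant genes passed the test more often. Of the 6408 genes that averaged 1000 normalized counts or more, 59.8% passed the adjusted p, 34.8% as lower, and 5.73% were DE, with a median log2 fold change of -0.029. Of the 22 members at this level, 18 passed, 17 of them as lower, and 1 was DE. The libraries of the groups did not overlap for 23 of 34 members, against 57.3% of all genes tested. With library size alone as scaling, the members' median was -0.19 and that of all genes 0.065, and the share of higher genes among all DE genes rose from 45.2% to 55.9%. Among the marker genes, 4 of 7 epithelial markers were DE and lower, KRT7, KRT8, KRT19 and CDH1. CDH1 went from 9.09 ± 0.978 to 2.26 ± 0.483 TPM (SD, n = 3). In the paper's own follow-up assays, KRT7 and KRT19 were not significantly affected, while CDH1 was lower by qRT-PCR and Western blot. Of the 8 fibroblast or stromal markers, 5 were lower by adjusted p, with a median of -0.29, and PDGFRA was DE (-1.52), while COL1A1 and COL3A1, which carry most of their sum, did not pass. The endothelial markers went both ways, with KDR (-0.68) and TIE1 (-1.58) DE and lower and CDH5 (1.45) DE and higher. CD14 was DE and lower (-0.98).

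**Figure D1:**
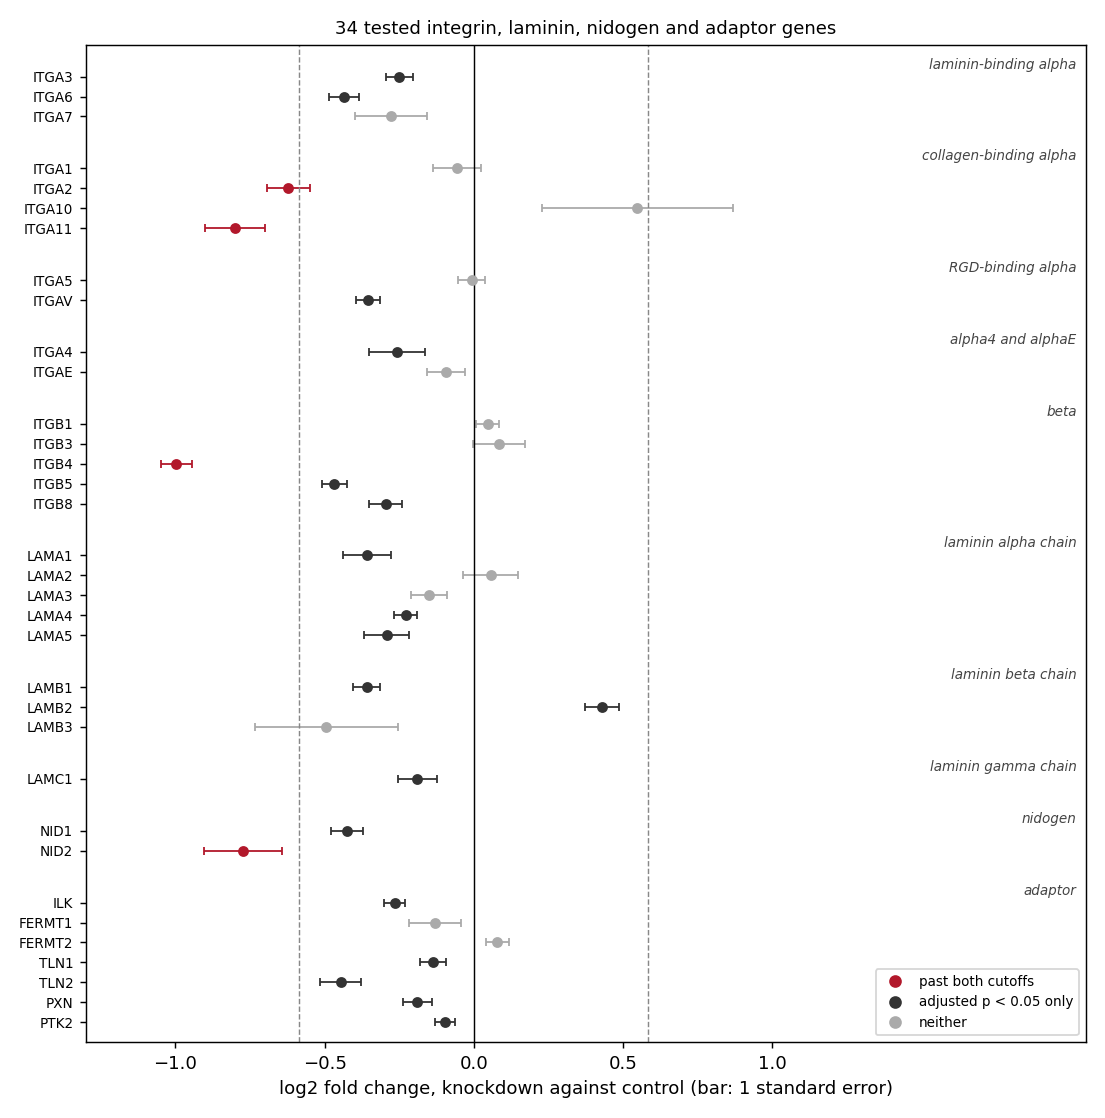
Log2 fold change of knockdown against control cells for the 34 tested members, grouped by class, with bars of 1 standard error (n = 3 libraries per group) and dashed lines at the 1.5-fold cutoff. The 4 members past both cutoffs all lie on the left, from -0.997 for ITGB4 to -0.62 for ITGA2, and LAMB2 is the one member that was higher by adjusted p.

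One control library stood apart by transcript length. Among genes that averaged 100 normalized counts or more, the 284 with a transcript of 12 kb or more were higher in control library 2 than in the other control libraries by a median of 0.20 on the log2 scale, and the 1625 genes under 2 kb had a median of -0.039. Between these ends, the median was 0.0015 for genes of 4 to 6 kb, 0.041 for 6 to 8 kb and 0.10 for 8 to 12 kb. The tested members are long, with a median longest transcript of 5.97 kb against 3.57 kb for all genes tested. Still, only 9 of the 34 had a transcript of at least 8 kb. In control library 2, 25 of the 34 were highest among the controls, against 35.1% of all genes tested. Shorter members could lie well off the median of their length, with NID1 (5.79 kb) at 0.22 and LAMB2 (5.69 kb) at -0.24. Without control library 2, 21 members were lower by adjusted p, 20 of them among the 21 of the full comparison, the median was -0.22, and 3 members were DE. The part of transcript length in the single results was not tested, and values without control library 2 are given where they moved a result.

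Of the 3 laminin-binding alpha subunits, ITGA3 and ITGA6 were lower by adjusted p, and of the beta subunits ITGB4 was DE. ITGB4, on chromosome 17 from 75721328 to 75757818 of GRCh38, encodes the beta subunit that pairs with ITGA6 and anchors hemidesmosomes, the junctions between keratin filaments and the basement membrane. It had 3771, 3957 and 3892 normalized counts in control libraries 1 to 3 and 1829, 1877 and 2124 in knockdown libraries 1 to 3. Every knockdown library lay far under every control library, and control library 2 was close to the others. The log2 fold change was -0.997 (standard error, SE, 0.052, adjusted p = 1.0e-08), which left 50.1% of the control level, and leaving out any single library gave values from -1.06 to -0.95.

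ITGA6, the partner of ITGB4 in hemidesmosomes and of ITGB1 elsewhere, had 4011, 4647 and 4243 normalized counts in control libraries and 3227, 3171 and 3137 in knockdown libraries. Its groups did not overlap, and its log2 fold change of -0.43 (SE 0.049, adjusted p = 9.9e-06) was short of the fold change needed to be DE. The ratio of ITGA6 to ITGB4 in TPM was 1.12 ± 0.0584 in control and 1.66 ± 0.151 in knockdown libraries (SD, n = 3). An exact two-sided permutation test of this ratio gave p = 0.10, the smallest value that 3 against 3 libraries allow.

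ITGA3, the other main laminin-binding subunit of epithelia, was more abundant. It had 10753, 10806 and 9676 normalized counts in control libraries and 8778, 8832 and 8671 in knockdown libraries. The groups did not overlap, and the log2 fold change was -0.25 (adjusted p = 4.0e-04). ITGA7, the laminin-binding subunit typical of muscle, was low, with 161 to 194 normalized counts in control and 136 to 166 in knockdown libraries, and its change of -0.28 did not pass the test (adjusted p = 0.064). It passed without control library 2, at -0.35 (adjusted p = 0.021), without knockdown library 2, at -0.37 (adjusted p = 0.036), and with unstranded counts, at -0.30 (adjusted p = 0.041).

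Among the collagen-binding subunits, the DE members were ITGA11 and ITGA2. ITGA11, on chromosome 15 from 68296532 to 68432163, binds fibrillar collagens and is known from fibroblasts. It had 354, 409 and 319 normalized counts in control libraries and 192, 225 and 204 in knockdown libraries, with no overlap. The log2 fold change was -0.80 (SE 0.10, adjusted p = 3.3e-05), and -0.71 without control library 2. ITGA2, on chromosome 5 from 52989340 to 53094779, pairs with ITGB1 as a collagen and laminin receptor of epithelia and platelets. It had 954, 1142 and 959 normalized counts in control libraries and 671, 684 and 624 in knockdown libraries. The groups lay apart, but the log2 fold change of -0.62 (SE 0.072, adjusted p = 1.2e-05) was close to the cutoff. It was under the cutoff without control library 2 (-0.54), without knockdown library 3 (-0.58) and with library size alone (-0.56).

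ITGA1, a receptor for type IV collagen, had 319 to 332 normalized counts in control and 286 to 333 in knockdown libraries, and these ranges overlapped (adjusted p = 0.60). ITGA10, the collagen receptor of cartilage, had 7.25 to 10.1 normalized counts in control and 11.7 to 13.6 in knockdown libraries. Its log2 fold change of 0.55 had a SE of 0.32 and did not pass the test (adjusted p = 0.20).

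Neither subunit of the main fibronectin receptor passed the test. ITGA5, which binds fibronectin with ITGB1, had 10631, 11200.5 and 9994 normalized counts in control libraries and 10386, 10981 and 10297 in knockdown libraries. The groups overlapped, with a log2 fold change of -0.0072 (SE 0.045, adjusted p = 0.91). ITGB1, the shared partner of most alpha subunits here, had 47126, 50462 and 48194 normalized counts in control libraries and 50654, 51852 and 48038 in knockdown libraries, which also overlapped. Its log2 fold change was 0.046 (SE 0.039, adjusted p = 0.36). With library size alone as scaling it passed the test as higher, at 0.11.

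ITGAV, the alpha subunit of the vitronectin receptors, was at 78.2% of its control level, with 7991, 8756 and 8034 normalized counts in control and 6495, 6472 and 6419 in knockdown libraries. Its log2 fold change was -0.35 (adjusted p = 1.2e-05). Its beta partners are given in turn. ITGB5 went from 2604 ± 71.0 to 1883 ± 75.3 normalized counts (SD, n = 3), a log2 fold change of -0.47 (adjusted p = 1.4e-06). ITGB8, which with ITGAV activates latent TGF-beta, went from 2749.8 ± 148 to 2242 ± 167 (-0.30, adjusted p = 6.4e-04). ITGB3 had 529.6 to 699.5 normalized counts in control and 617 to 673 in knockdown libraries, and its change of 0.085 did not pass the test (adjusted p = 0.45). Without control library 2 it passed as higher, at 0.20 (adjusted p = 0.024). In the annotation used, 33.2% of the exon bases of ITGB3 are shared with another gene of the same strand, so part of its reads may have been left uncounted as ambiguous. ITGB6, an epithelial partner of ITGAV, had 0 to 2 counts per library before normalization and was not tested.

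The receptors known from leukocytes were low. ITGA4, which pairs with ITGB1 or ITGB7 and binds VCAM1 and fibronectin, had 347, 438 and 391 normalized counts in control libraries and 335, 345 and 298 in knockdown libraries. The lowest control library was just above the highest knockdown library, and the log2 fold change was -0.26 (adjusted p = 0.036). This call was lost without control library 2 (-0.17, adjusted p = 0.12), without control library 3 or knockdown library 1 (adjusted p = 0.071 for both) and without knockdown library 3 (adjusted p = 0.13). It was also lost with DESeq2 (adjusted p = 0.056) and with library size alone (-0.20, adjusted p = 0.091). ITGAE, which binds E-cadherin with ITGB7, overlapped between the groups (-0.093, adjusted p = 0.25). Its partner ITGB7 had 4 to 11 counts per library before normalization and was not tested. Of 8 further integrin genes, ITGA2B, a platelet subunit, was the one tested, and its groups overlapped (adjusted p = 0.63).

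**Figure D2:**
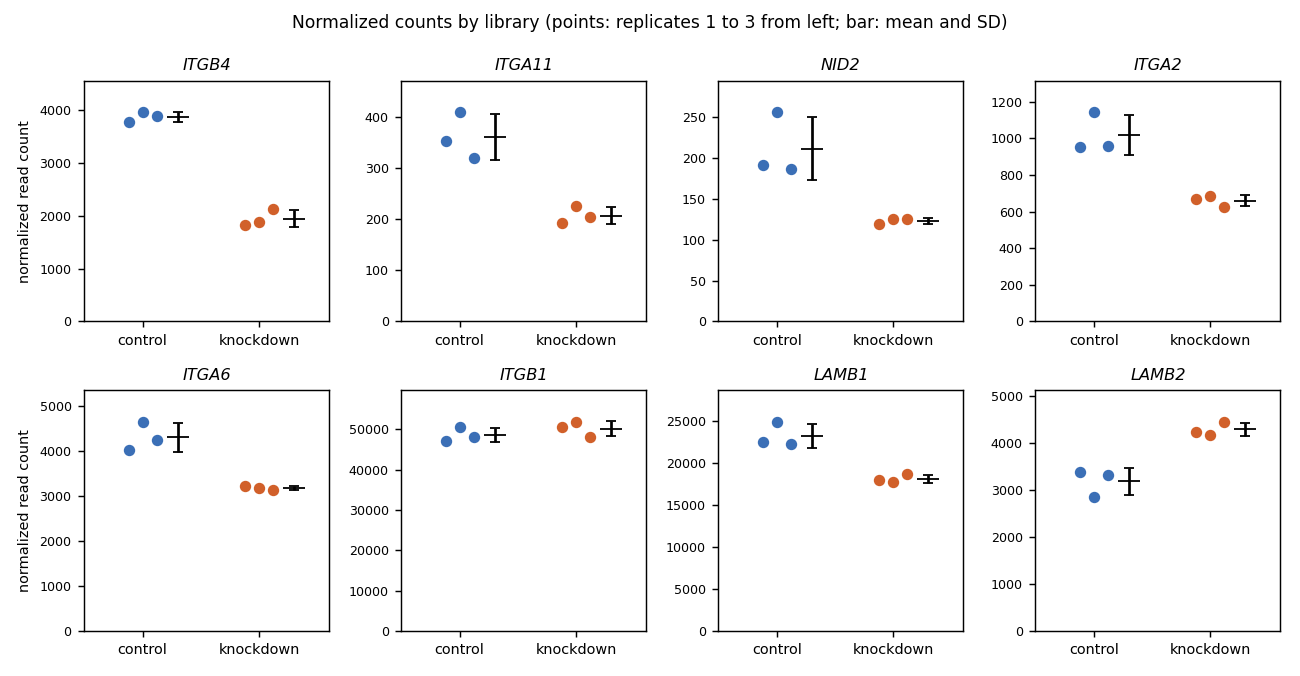
Normalized read counts of 8 members in each library (points, replicates 1 to 3 from the left) with the mean and SD of each group, on axes that start at 0. The groups lie apart for all but ITGB1, LAMB2 is higher in knockdown cells, and control library 2 is the highest control in all panels except LAMB2, where it is the lowest.

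Within the beta subunits, the makeup shifted from ITGB4 and ITGB5 to ITGB1. The shares were taken as counts per kb of exon over the 7 beta subunits of a library, and they are given without a test. ITGB1 made up 72.8% ± 0.319 in control libraries (SD, n = 3) and 81.1%, 81.6% and 79.7% in knockdown libraries. ITGB4 took 12.5%, 12.3% and 12.7% in control libraries and 6.31%, 6.36% and 7.58% in knockdown libraries. ITGB5 went from 8.73% ± 0.438 to 6.77% ± 0.0988, and ITGB8 from 3.96% ± 0.0880 to 3.47% ± 0.354 (SD, n = 3). None of these shares overlapped between the groups. ITGB3 stayed near 2% in both groups, at 1.92% ± 0.225 and 2.19% ± 0.115. Per kb of longest transcript, ITGB4 took 6.37% ± 0.0930 in control and 3.29% ± 0.370 in knockdown libraries. Since shares add up to 100%, a lower ITGB4 raises the others without a change in their own level.

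Laminin alpha chains carry the binding sites for integrins. Of the 5 chains, LAMA1, LAMA4 and LAMA5 were lower by adjusted p, and none was DE. LAMA5, the chain of most adult epithelial basement membranes, was the most abundant by length. It had 10752, 12277 and 10164 normalized counts in control libraries and 8916, 8139 and 10049.7 in knockdown libraries. The highest knockdown library nearly reached the lowest control library, and the log2 fold change was -0.29 (SE 0.074, adjusted p = 0.0053). LAMA4, known from vessels and mesenchyme, changed by -0.23 (adjusted p = 2.5e-04) and was not raised in control library 2. LAMA1, an early embryonic chain, changed by -0.36 (adjusted p = 0.0024), and by -0.24 without control library 2.

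LAMA3, the alpha chain of the laminin that hemidesmosomes bind, had 2126, 2530.0 and 2197 normalized counts in control libraries and 2036, 1978 and 2154 in knockdown libraries. The groups overlapped, and its change of -0.15 did not pass the test (adjusted p = 0.052). It lay at the limit of the test, and passed without control library 1 (-0.20, adjusted p = 0.019), without control library 3 (-0.18, adjusted p = 0.050) and without knockdown library 3 (-0.18, adjusted p = 0.049). It also passed with unstranded counts (adjusted p = 0.044) and with no filter on low counts (adjusted p = 0.0098), while without control library 2 it was -0.076 (adjusted p = 0.19). Its partner chain LAMB3 was close to absent, with 17.0 to 33.1 normalized counts in any library and a change of -0.49 (SE 0.24) that did not pass either (adjusted p = 0.11). LAMA2, the chain of muscle, overlapped between groups (0.057, adjusted p = 0.64), and without control library 2 it passed as higher, at 0.19 (adjusted p = 0.018).

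The alpha chain makeup was similar in the 2 groups. LAMA5 took 51.1% ± 1.52 of the counts per kb over LAMA1 to LAMA5 in control and 49.8% ± 1.85 in knockdown libraries (SD, n = 3). LAMA4 took 25.1% to 29.6% in control and 26.5% to 29.0% in knockdown libraries. Both overlapped between the groups. LAMA3 and LAMA2 rose in share without overlap, by 0.808 and 0.529 percentage points.

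The beta chains went in opposite directions. LAMB1, the general beta chain, is on chromosome 7 from 107923799 to 108003213 and had 22496, 24908 and 22312 normalized counts in control libraries and 18032, 17698 and 18634 in knockdown libraries. LAMB2, the beta chain of glomerular, muscle and vascular basement membranes, is on chromosome 3 from 49121114 to 49133118 and had 3379.5, 2843 and 3329 in control libraries and 4244, 4175 and 4454 in knockdown libraries. Neither gene's groups overlapped, with LAMB1 lower and LAMB2 higher in knockdown cells. The log2 fold change was -0.36 for LAMB1 (SE 0.045, adjusted p = 2.2e-05) and 0.43 for LAMB2 (SE 0.057, adjusted p = 4.1e-05), both under the fold change cutoff. Control library 2 had the highest LAMB1 and the lowest LAMB2, and without it the changes were -0.31 and 0.35.

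In TPM, LAMB1 was 2.46, 3.23 and 2.48 times LAMB2 in control libraries and 1.57, 1.57 and 1.54 times LAMB2 in knockdown libraries. The exact two-sided permutation p of this ratio was 0.10, the smallest possible. LAMB2 thus took 27.0% ± 3.01 of the beta chain counts per kb in the control group and 39.0% ± 0.217 in the knockdown group (SD, n = 3). These levels rest on the union of exons, which is 18592 bases for LAMB1 against 6737 in its longest transcript. Per kb of longest transcript, LAMB1 was 5.62, 7.40 and 5.66 times LAMB2 in control and 3.59, 3.58 and 3.53 times in knockdown libraries, and LAMB2 took 11.9% to 15.1% of the beta chains in control and 21.9% ± 0.148 in knockdown libraries (SD, n = 3). LAMB2 was the only tested integrin, laminin, nidogen or adaptor member that was higher by adjusted p in the comparison of all 6 libraries.

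**Figure D3:**
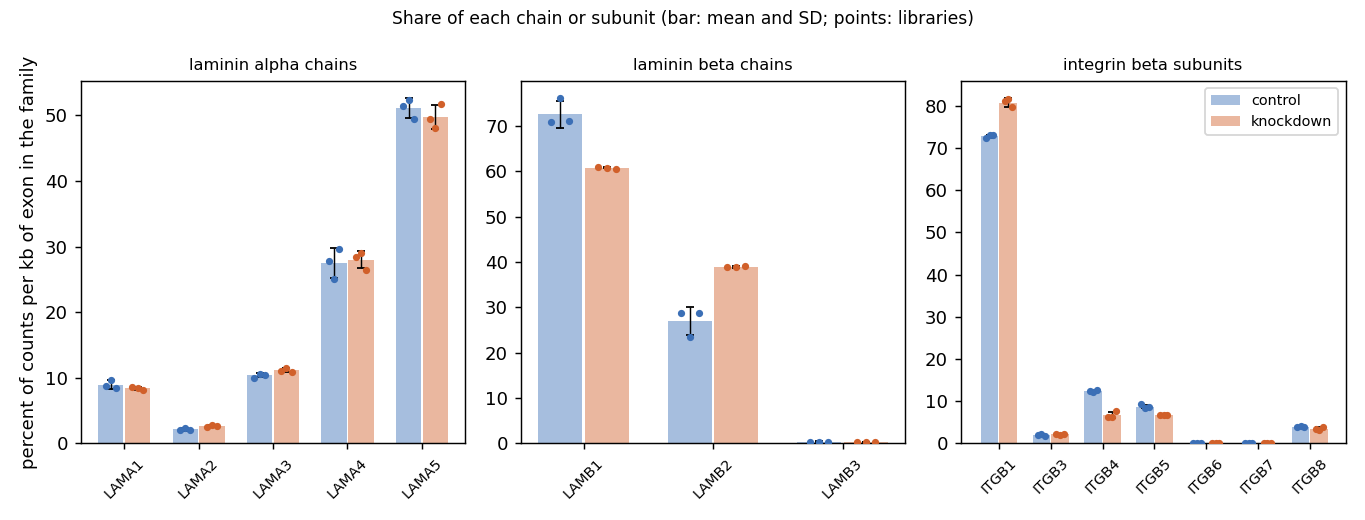
Share of each laminin alpha chain, laminin beta chain and integrin beta subunit, as percent of the counts per kb of exon in its family, with group means, SD and single libraries. LAMB2 goes from 27.0% to 39.0% and ITGB4 from 12.5% to 6.75%, while the alpha chains keep their order from LAMA5 down to LAMA2.

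LAMC1, the gamma chain of most laminins, had 518 ± 75.0 TPM in control and 454 ± 4.92 in knockdown libraries (SD, n = 3), beside 446 ± 24.0 and 461 ± 15.3 for ITGB1. Per kb of longest transcript, ITGB1 was 2.12 ± 0.182 times LAMC1 in control and 2.48 ± 0.107 times in knockdown libraries, so their order depends on the length used. Its normalized counts were 30084, 37362 and 30492 in control libraries and 29102, 28260.4 and 28501 in knockdown libraries. Control library 2 stood well above the others, and the log2 fold change of -0.19 (adjusted p = 0.029) was -0.084 (adjusted p = 0.040) without it. The call was lost without any single knockdown library, at adjusted p = 0.064, 0.090 and 0.077 for libraries 1 to 3, with DESeq2 (adjusted p = 0.13) and with library size alone (-0.13, adjusted p = 0.10). LAMC3 had 1 to 6 counts per library before normalization and was not tested.

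Both nidogens were lower. NID1 had 6338, 7379 and 6333 normalized counts in control libraries and 5014, 4937 and 4975 in knockdown libraries, with a log2 fold change of -0.43 (SE 0.053, adjusted p = 2.3e-05). NID2, on chromosome 14 from 52004809 to 52069059, was far less abundant, with 192, 256 and 187 in control libraries and 119, 126 and 125 in knockdown libraries. The groups lay apart for both genes, and control library 2 was the highest control for both. NID2 was DE, with a log2 fold change of -0.77 (SE 0.13, adjusted p = 2.8e-04), and -0.62 (adjusted p = 1.3e-04) without control library 2. The ratio of NID1 to NID2 in TPM went from 34.2 ± 2.89 to 43.2 ± 1.75 (SD, n = 3), without overlap.

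No adaptor was DE. ILK, a pseudokinase that binds beta tails and parvins, is on chromosome 11 from 6603708 to 6610874. It had 5945, 5669.5 and 5741 normalized counts in control libraries and 4869.9, 4781 and 4789 in knockdown libraries. The groups lay apart and spread little, with a log2 fold change of -0.27 (SE 0.036, adjusted p = 4.5e-05). In the annotation used, 78.5% of the exon bases of ILK overlap genes on the opposite strand, TAF10 among them, so its value depends on counting by strand. The unstranded column gave ILK 38 to 106 counts per library, in place of 4221 to 6280, and those few gave 0.68 (adjusted p = 0.0057).

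Talins activate integrins by binding the beta tail. TLN1 had 13647, 15362 and 14407 normalized counts in control libraries and 13470.3, 12789 and 13203 in knockdown libraries, a small change of -0.14 (adjusted p = 0.020). It did not pass without knockdown library 2 (-0.11, adjusted p = 0.10) or 3 (-0.14, adjusted p = 0.050), nor with library size alone (-0.074, adjusted p = 0.14). TLN2, the less abundant talin, went from 1339, 1593 and 1311 to 1036, 1073 and 997, a log2 fold change of -0.45 (SE 0.068, adjusted p = 1.2e-04). The groups did not overlap for either talin. FERMT2, the main kindlin of these cells, had 7795, 7974 and 7697 normalized counts in control and 8311, 8581 and 7877 in knockdown libraries, and the change of 0.078 did not pass the test (adjusted p = 0.12). It passed as higher without knockdown library 3 (0.11, adjusted p = 0.038) and with library size alone (0.14, adjusted p = 0.0059). FERMT1, the epithelial kindlin, had 254 to 317 in all libraries and did not pass (adjusted p = 0.24), though it did with unstranded counts (-0.20, adjusted p = 0.025).

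PXN, which encodes the scaffold paxillin, had 5728, 5916 and 5186 normalized counts in control libraries and 4905, 5083 and 4769.6 in knockdown libraries. The log2 fold change was -0.19 (adjusted p = 0.0057). PTK2, which encodes focal adhesion kinase, changed by -0.097 (SE 0.034, adjusted p = 0.031), from 9895 ± 202 to 9249 ± 61.7 normalized counts (SD, n = 3). Its call was lost without control library 3 and without any single knockdown library (adjusted p from 0.083 to 0.10), with library size alone (-0.035, adjusted p = 0.40) and with no filter on low counts (adjusted p = 0.072). Neither gene overlapped between the groups.

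By length and over all 6 libraries, the most abundant members after LAMC1 and ITGB1 were ILK, ITGA5, TLN1, LAMB1, NID1, ITGA3, FERMT2 and PXN. In control libraries, ILK had 222 ± 3.44 TPM, and TLN1 (195 ± 15.1) and ITGA5 (179 to 207) followed within their spread (SD, n = 3). LAMB1 (167 ± 13.6), NID1 (154 ± 16.9) and ITGA3 (142 ± 10.1) came next, each within the spread of its neighbour, and then FERMT2 (124 ± 4.43). TPM used all annotated exon bases of a gene, and this places a gene low where its longest transcript holds well under the sum of its exons. This holds for LAMB1 and ITGB1, and also for PTK2 (13742 bases against 5136) and ITGAV (19336 against 7951). The order and choice of the most abundant members therefore depend on the length used.

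The neighbouring genes of the pathway were taken from fixed lists. Of 36 tested focal adhesion proteins outside the members, 8 were higher and 7 lower by adjusted p (41.7% in all, against 48.3% of all genes tested), with a median log2 fold change of -0.0027. NEDD9, a scaffold related to p130Cas, was the one that was DE (2.78% of this list, against 11.7% of all genes tested). It had 22.7, 16.9 and 20.7 normalized counts in control libraries and 33.0 to 36.4 in knockdown libraries, a log2 fold change of 0.77 (SE 0.22, adjusted p = 0.0098). Of 15 tested ligands of the matrix and basement membrane, 1 was higher and 7 were lower by adjusted p (53.3% in all, against the same 48.3%). None of the 15 was DE, against the same 11.7%, and their median was -0.11. Of 6 tested genes of hemidesmosomes and other laminin receptors, 66.7% passed the adjusted p, against the same 48.3%. CD151 was higher, DST, DAG1 and BCAM were lower, and none of the 6 was DE, against the same 11.7%. PLEC did not pass the test (-0.020, adjusted p = 0.83). COL17A1 had only 0.400 ± 0.118 TPM in control libraries (SD, n = 3) and did not pass either (adjusted p = 0.83). DST, which encodes a plakin of hemidesmosomes and is named after its values were seen, had 16351 and 15103 normalized counts in control libraries 1 and 3 and 32135 in control library 2. Its knockdown libraries had 15831, 12627 and 14421, which overlapped with control library 3, and its log2 fold change was -0.57 (SE 0.21, adjusted p = 0.038).

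Matches to the guide seed stood in similar shares of members and of all genes. An 8-base match to the guide seed, AGAATGGA, was found in the 3′ UTR of 2 of 34 tested members (5.88%) and of 5.77% of 12538 tested genes with a 3′ UTR. The 7-base match, AGAATGG, was found in 6 members (17.6%) and in 17.1% of those genes. Tested genes with the 8-base match had a median log2 fold change of -0.15, and those without it -0.01. The members with the 8-base match were ITGA11, which was DE, and ITGA4. Their matches, in capitals within the sequence of GENCODE v44 on the transcript strand, are shown because they are the sites of these 2 members:
ITGA11: ctgctccctccAGAATGGAactcaagctgg
ITGA4: ttcaaattgagAGAATGGAaaacagactca
ITGA1, ITGAV, ITGB8 and TLN2 held the 7-base match alone. For the passenger seed, the 7-base match GTAACTT was found in 8 members (23.5%) and in 13.6% of the genes. GTAACTTA, this match followed by an A that does not pair with passenger base 1, was found in 3 members (8.82%) and in 3.36%. ITGB4, ITGA2, NID2 and LAMB2 held no match of 7 bases to the seed of either strand in their 3′ UTR. A match is no measure of binding, and the part of the seed in the change of ITGA11 was not tested.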

How the data were processed

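RNA-sequencing of 12Z cells was analysed, 3 control and 3 LINC01133 knockdown libraries. Reads were aligned by the authors with STAR 2.7.6a to GRCh38.p13 and GENCODE v36, keeping unique alignments, and they deposited raw counts of read pairs per gene for either strand and without strand. The column opposite to read 1, which held 94.0% of stranded counts, was used. Symbols, positions, exon lengths and 3′ UTRs came from GENCODE v44 on GRCh38. Genes passing filterByExpr (minimum count 10) were normalized by TMM and compared in R 4.3.3 with edgeR 4.0.16 (quasi-likelihood test), with no term besides the condition. Normalized counts are counts scaled to the mean effective library size. TPM used the union of annotated exons. The test was checked on simulated data.

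The members and gene lists were chosen with earlier results of these data known. Values in every library were given for DE members and for the 10 most abundant by length. Other members, ITGA2B, DST and the other hemidesmosome and laminin receptor genes were added after their values were seen. Further pathway list genes were named where DE. Marker genes were named after their values were seen. One list gene is not reported here. Alternatives were DESeq2 1.42.0, other scalings and filters, unstranded counts, the replicate number as a block, and each library left out. Replicate numbers were not used as a pairing in the main test. Depth limits the precision of low genes, and SD and standard errors cover 3 libraries per group.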

Additional observations from a re-analysis of the deposited data

How the results depend on the processing

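The count of DE members was 4 with all 6 libraries, between 3 and 5 under the other scalings, filters, columns, tests and left-out libraries, and 22 with no fold change cutoff. ITGA2 was the member lost, with library size alone (-0.56), without control replicate 2 (-0.54) and without knockdown replicate 3 (-0.58). Unstranded counts added ILK, whose direction reversed to 0.68. The count lower by adjusted p ranged from 17 to 23. Other changes of sign occurred in values that did not pass the test. With library size alone, ITGA5 was 0.056 and ITGA1 0.0066. With single libraries left out, ITGA5 ranged from -0.047 to 0.031, ITGA1 from -0.10 to 0.0076 and LAMA2 from -0.018 to 0.19. Taking lengths from the longest transcript moved the change in share, knockdown minus control, to 4.96 percentage points for ITGB1, 0.0845 for ITGB3, -3.09 for ITGB4, -1.48 for ITGB5, 0.950 for LAMA2, -7.85 for LAMB1 and 7.88 for LAMB2, each in its main direction. Laminin beta chain shares and the ratios between members, with their permutation tests, were added after seeing the data. With the replicate number as a block, 4 members were DE and 22 passed the adjusted p, in both cases the same genes as without it. Same-numbered libraries had correlations of deviations of -0.056, -0.0010 and 0.11. Such values cannot show whether same-numbered libraries were handled together.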
